A study of Arabidopsis thaliana with 8 samples.

Results

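Plastid-encoded genes were measured in roots of Arabidopsis thaliana on 8 Affymetrix ATH1 arrays. The set held every probeset that the platform annotation assigns to exactly 1 gene and whose gene lies on the plastid chromosome of the TAIR10.1 annotation. Each gene is represented by its brightest probeset. This gave 69 genes with 1 probeset each, out of 22746 probesets tested and out of 78 distinct protein-coding symbols on that chromosome. By function, 20 genes encode photosystem proteins (psa and psb), 15 ribosomal proteins (rpl and rps), 10 subunits of the NDH complex, 6 subunits of the cytochrome b6f complex (pet), 6 subunits of ATP synthase (atp) and 4 subunits of RNA polymerase (rpo). The others were rbcL, the large subunit of Rubisco, and 7 genes of other function (accD, ccsA, cemA, clpP, matK, ycf3 and ycf4). A further 8 probesets, which the annotation gives to several plastid genes because those genes lie in copies or pieces (rpl2, rpl23, rps7, rps12, ndhB, ycf1 and ycf2), were not members.

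The plants were wild type in the Col-0 ecotype or carried the mutation per1 in that ecotype. All plants were kept on control agar for 10 days, and then moved for 10 h to control medium or to medium without phosphate (Pi-free). This gave 4 groups of 2 arrays, which the titles call biological replicates: Col-0 control, Col-0 Pi-free, per1 control and per1 Pi-free. The free-text descriptions of the arrays speak of iron media and do so unevenly within groups, so the groups rest on titles, source names and the design text. The mutant per1 is known for root hairs that do not elongate under phosphate shortage, and UBP14, which the literature names as the mutated gene, has no named probeset and was not analysed here. No allele name and no number of mutant lines is stated in the labels. The question the 4 groups address for these genes is whether plastid transcript levels in roots differ between the media and between the genotypes.

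The plastid chromosome holds a small part of the genes for plastid proteins, and nuclear genes encode the rest, so that nearly every plastid complex has subunits of both origins. Plastid genes stand in clusters that are read into long transcripts and then cut and trimmed. They are read by a bacterial-type polymerase, whose core is made from the plastid rpo genes and whose sigma factors come from the nucleus, and by a phage-type polymerase that is encoded in the nucleus. Photosystem genes depend mainly on the former, while accD and the rpoB, rpoC1 and rpoC2 genes are read by the latter. Roots hold mostly non-green plastids, in which plastid genes are read at low levels compared with leaves, although fatty acid synthesis, for which accD supplies a subunit of acetyl-CoA carboxylase, goes on there too.

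The deposited values are linear probeset signals, with a 2% trimmed mean of 500 on each array. The mean signal of the 69 genes over the 8 arrays ran from 45.48 for atpI to 7936 for psbM. Of the 69, 64 lay above the brightest of 27 Bacillus subtilis control probesets on every array, where that control signal ran from 26.1 to 43.4. The remaining 5 genes (atpI, psaA, psbN, ndhF and ndhH) fell below it on 1 or 2 arrays, and changes of these genes include signals near that level. Within each class the signals differed widely between probesets, from 46.8 for ndhH to 2259 for ndhI, from 64.1 for psbN to 7936 for psbM, from 71.4 for petD to 4541 for petB, from 45.48 for atpI to 4119 for atpE, from 102.1 for rps14 to 3882 for rps3, from 57.1 for rpoB to 3714 for rpoA and from 266.5 for ycf3 to 5405 for matK. The signal for rbcL averaged 704.9. These signals depend on the probes as well as the transcripts, so they give no order of transcript levels between genes. Plastid messages carry no stable poly(A) tail, and the labels do not name the primer of the cDNA step, so how evenly these transcripts were copied on the different arrays was not tested.

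The tissue label was set against marker genes. Of 14 root markers, 4 had a named probeset, and their summed signal was 25217.3 to 31200.9 per array, most of it from PYK10, a beta-glucosidase of root endoplasmic reticulum bodies, at 20940.6 to 24224.9. All 4 were separate, without overlap between the arrays of 2 groups, with per1 lower in Pi-free medium (median -0.41, against 19.8% of all probesets). In per1 all 4 were separate with Pi-free lower (median -0.33, against 14.5%), although PYK10 changed there by only -0.11 ± 0.12. PRX44, a root peroxidase, differed by -0.52 ± 0.13 and PYK10 by -0.06 ± 0.12 between genotypes in Pi-free medium. EXPA18, an expansin of root hairs, differed by -0.71 ± 0.11 there (limma, adjusted p = 0.087), and averaged over media it fell by 0.47 ± 0.08 on the log2 scale in per1 (adjusted p = 0.03). Of 19 markers of green shoot tissue, 3 had a named probeset (RCA, LHCB4.1 and PRK), and their summed signal was 505.4 to 695 on the Col-0 arrays and 307.4 to 382.3 on the per1 arrays. None of the 7 markers of non-green root plastids had a named probeset. In whole roots, fewer cells of a type, fewer plastids per cell and less RNA per plastid cannot be told apart.

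One Col-0 array stood apart for these genes. Relative to each gene's own mean over the 8 arrays, the median plastid-encoded gene stood at -0.39 on Col-0 control replicate 1 and at 0.05 on Col-0 control replicate 2, on the log2(signal + 16) scale that is used for all changes here. It stood at 0.04 and -0.10 on the Col-0 Pi-free arrays, at -0.08 and 0.02 on the per1 control arrays, and at 0.20 and 0.18 on the per1 Pi-free arrays. Col-0 control replicate 1 was thus the lowest array and the per1 Pi-free arrays were the highest. Of the 69 genes, 40 had their lowest signal of the 8 arrays on Col-0 control replicate 1, and none had it on a per1 Pi-free array. The highest signal of a gene fell on per1 Pi-free replicate 1 for 16 genes and on replicate 2 for 21. The within-group SD of these array medians was 0.167. Array-wide median signals lay between 186 and 197.1, with 192.7 on Col-0 control replicate 1. The probeset for 5S rRNA, which like plastid messages has no poly(A) tail, read 137.1 and 348.8 in Col-0 control, 159 and 211.3 in Col-0 Pi-free, 134.8 and 350 in per1 control, and 439.5 and 460.8 in per1 Pi-free. The 5S signal too was highest on both per1 Pi-free arrays. The probeset for 25S rRNA read 47 and 117.2, 51.8 and 143.4, 99.7 and 203.5, and 88.4 and 241.8 in the same order of groups. It was highest on per1 Pi-free replicate 2, but on replicate 1 it lay within the range of the other groups. The part of either in the plastid values was not tested. The ratio of the 3' to the 5' actin probesets, a sign of RNA length, was 4.58 and 4.21 in per1 Pi-free and 4.07 to 6.38 on the other arrays.

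**Figure D1:**
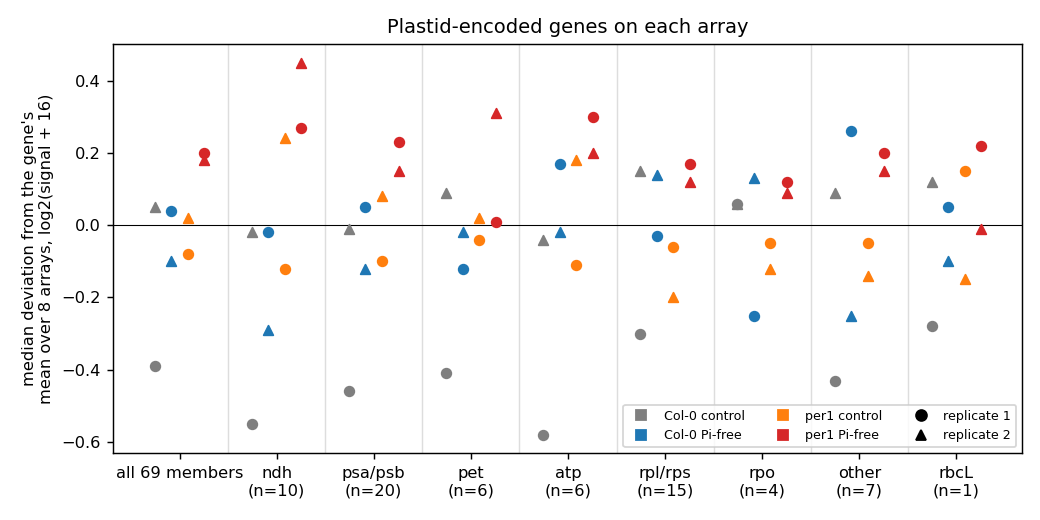
Median deviation of the plastid-encoded genes from each gene's own mean over the 8 arrays (vertical axis, log2(signal + 16)), for all 69 members and for each functional class. Each point is 1 array, coloured by group and shaped by replicate number. For all 69 members, Col-0 control replicate 1 lies at -0.39 and the per1 Pi-free arrays at 0.20 and 0.18.

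In the Pi-free medium, the plastid-encoded genes stood higher in per1 than in Col-0, with a median difference of 0.20, and the differences were uneven between classes. Of the 69 genes, 52 had an estimate above 0 (75.4%, where 50.5% of all probesets did), and the median of all probesets was 0.00. Both per1 arrays lay above both Col-0 arrays for 28 genes, or 40.6%, against 20.5% of all probesets, and below them for 5 genes, or 7.25%, against 19.8%. No gene passed an adjusted p of 0.05 in limma, as 0.0308% of all probesets did, and the lowest adjusted p was 0.12 for rpl33. An unadjusted p under 0.05 was reached by 13 genes that stood higher and 1 that stood lower, against 5.35% and 5.34% of all probesets. None of the Col-0 control arrays enters these differences. The root markers stood lower on the same per1 arrays, by a median of -0.41, and their part in the plastid values was not tested. Leaving out each of the 8 arrays in turn gave medians of 0.16 to 0.29, where leaving out a control array cannot change the median.

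The NDH complex is a relative of respiratory complex I that passes electrons from ferredoxin to plastoquinone. Its 10 measured plastid-encoded subunits had a median difference of 0.57 between per1 and Col-0 in Pi-free medium. For 9 of 10 (90%, against 20.5% of all probesets) both per1 arrays lay above both Col-0 arrays. ndhG, a subunit of the membrane arm, read 165.2 and 140.1 in Col-0 Pi-free and 265.5 and 428.8 in per1 Pi-free, and 160.8 and 156.1 in Col-0 control against 179.1 and 416.8 in per1 control. All 4 per1 signals lay above all 4 Col-0 signals, although 1 array of each per1 pair was far higher than the other. The difference was 1.07 ± 0.35 (SE, n = 2 per group) in Pi-free medium and 0.90 ± 0.24 averaged over media (adjusted p = 0.14). ndhE, its neighbour in the same arm, read 133.7 and 196.4 in Col-0 control, 162 and 145.7 in Col-0 Pi-free, 161.9 and 324.2 in per1 control, and 213.4 and 343 in per1 Pi-free. Its groups overlapped in control medium and were separate in Pi-free medium, with a difference of 0.76 ± 0.33 there.

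ndhH, a subunit of the arm that reaches into the stroma, read 11.7 and 27.6 in Col-0 control, 42.2 and 28.7 in Col-0 Pi-free, 58 and 68.6 in per1 control, and 76.9 and 60.7 in per1 Pi-free. All 4 per1 signals were above all 4 Col-0 signals, but the Col-0 signals lay close to the level of the control probesets. Averaged over media the difference was 0.96 ± 0.23 (limma, adjusted p = 0.10), the lowest adjusted p of any member in that comparison. ndhJ, another stromal-arm subunit, read 52.6 and 55.1 in Col-0 control against 86.8 and 179.8 in per1 control, a difference of 1.02 ± 0.39 (adjusted p = 0.41). ndhA, of the membrane arm, read 144.3 and 366.9 in Col-0 control, 302.8 and 280 in Col-0 Pi-free, 296.7 and 293.4 in per1 control, and 365.4 and 459.4 in per1 Pi-free. Its Col-0 control signals spanned the per1 control signals, and in Pi-free medium the genotypes differed by 0.47 ± 0.33. ndhI, an iron-sulfur subunit that lies beside ndhG and ndhA, was the exception in the class in Pi-free medium. It read 1812.1 and 2850.4 in Col-0 control, 2236.8 and 2590.2 in Col-0 Pi-free, 1950.4 and 1978.3 in per1 control, and 2194.9 and 2461.1 in per1 Pi-free, and the genotypes overlapped, with a difference of -0.05 ± 0.18. The probeset for ndhI was also the brightest of the class.

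Among the photosystem genes, the median difference between genotypes in Pi-free medium was 0.17. psbB, which encodes an inner antenna protein of photosystem II, read 103.4 and 133.3 in Col-0 control, 146.9 and 82.7 in Col-0 Pi-free, 157.4 and 321.9 in per1 control, and 236.7 and 265.8 in per1 Pi-free. The per1 signals all lay above the Col-0 signals, and the difference averaged over media was 0.97 ± 0.24 (limma, adjusted p = 0.11). psbT, a small photosystem II subunit read together with psbB, had the highest difference of the class in Pi-free medium, 1.08 ± 0.36, with signals of 250.1 and 96.8 in Col-0 and 285.5 and 427.3 in per1. psaB, a core protein of photosystem I, had the lowest, -0.43 ± 0.24, with 1261.4 and 1236.4 in Col-0 and 1044.8 and 817.7 in per1. In the class, 8 of 20 genes were separate with per1 higher (40%, against 20.5% of all probesets). Only 2 were separate with per1 lower (10%, against 19.8%).

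Of the 6 cytochrome b6f genes, 2 were separate with per1 higher in Pi-free medium (33.3%, against 20.5% of all probesets) and 1 with per1 lower (16.7%, against 19.8%). The 6 ATP synthase genes had 3 (50%) and 1 (16.7%). petG and petN encode small subunits of the cytochrome complex, which links both photosystems. petG read 65.8 and 104.4 in Col-0 control, 64.9 and 50.8 in Col-0 Pi-free, 142.6 and 100.9 in per1 control, and 149.2 and 138.6 in per1 Pi-free. The genotypes overlapped in control medium and were separate in Pi-free medium, where the difference was 1.12 ± 0.29 (adjusted p = 0.24). petN read 141.7 and 99.6 in Col-0 Pi-free and 253.6 and 222.7 in per1 Pi-free, a difference of 0.91 ± 0.27 (adjusted p = 0.29), and 156.6 and 104.8 against 166.9 and 251.2 in control medium. petA, which encodes cytochrome f, was on the other side, with 1707.7 and 2108.2 in Col-0 Pi-free and 1401.1 and 1400.9 in per1 Pi-free, a difference of -0.43 ± 0.18.

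atpH encodes the ring subunit of the membrane part of ATP synthase. It had the largest difference among the 69 genes in Pi-free medium, 1.73 ± 0.47 (adjusted p = 0.26). Its signals were 171.7 and 254.6 in Col-0 control, 128.2 and 223.2 in Col-0 Pi-free, 170.6 and 549.3 in per1 control, and 461.4 and 780.1 in per1 Pi-free. The genotypes were separate in Pi-free medium, and in control medium 1 of the 2 per1 arrays lay below both Col-0 arrays. atpI, the neighbouring membrane subunit, read 8.4 and 29.8 in Col-0 control, 35.4 and 49.4 in Col-0 Pi-free, 25.8 and 54.9 in per1 control, and 76.9 and 83.2 in per1 Pi-free, with a difference of 0.73 ± 0.39 in Pi-free medium. atpB, a subunit of the catalytic head, had the lowest difference of its class, -0.30 ± 0.28.

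**Figure D2:**
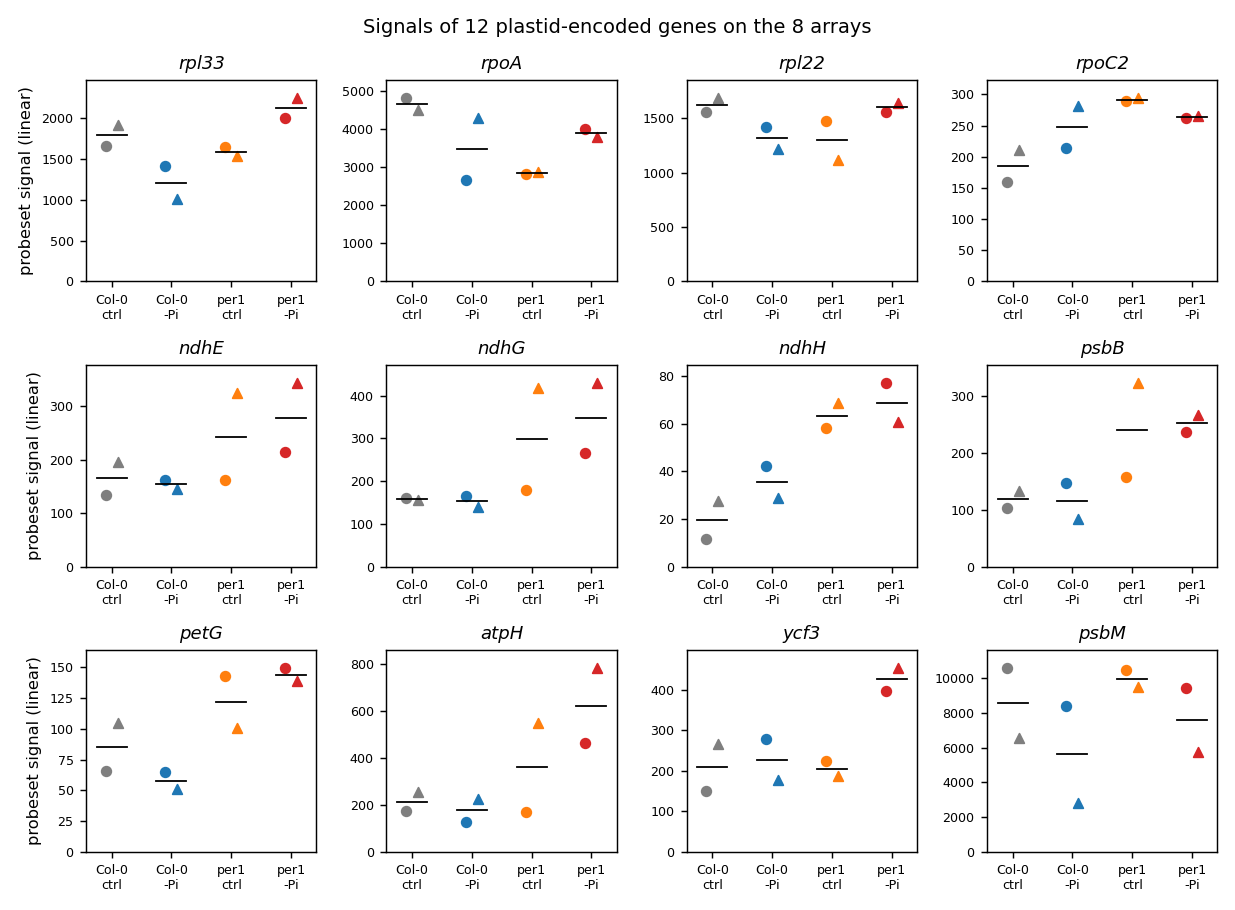
Probeset signal (vertical axis, linear, from 0) of 12 plastid-encoded genes in the 4 groups. Points are single arrays, shaped by replicate number, and bars are group means of 2 arrays. The 4 per1 points of ndhG, ndhH and psbB lie above their 4 Col-0 points, while rpl33 and rpl22 are lower in Pi-free than in control medium in Col-0 and higher in per1.

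The genes for ribosomal proteins stood apart from the NDH genes in the genotype comparison. Their median difference was 0.07 in Pi-free medium and -0.16 in control medium, where 5 of 15 had an estimate above 0 (33.3%, against 47.5% of all probesets). rpl33, a protein of the large subunit, read 1656.1 and 1911.7 in Col-0 control, 1410.5 and 1003.8 in Col-0 Pi-free, 1646.1 and 1528.4 in per1 control, and 2000.1 and 2240.9 in per1 Pi-free. Its signal was lowest in Col-0 Pi-free and highest in per1 Pi-free, with no overlap between them, and the difference was 0.82 ± 0.16 (limma, adjusted p = 0.12). rps14, a small-subunit protein, had the largest difference of the class, 0.87 ± 0.28, with 63.9 and 74 in Col-0 and 118.7 and 163.2 in per1. rpl32 had the lowest, -0.19 ± 0.16, with 2061.5 and 2086.2 in Col-0 Pi-free against 2127.1 and 1546 in per1 Pi-free, which overlapped. rps15, a small-subunit gene at the end of the ndh cluster, read 255.5 and 329.5 against 317.2 and 360.6, also with overlap, a difference of 0.21 ± 0.24.

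The polymerase genes did not share a pattern either. rpoA, the alpha subunit, read 4808.7 and 4489 in Col-0 control, 2672.6 and 4279.2 in Col-0 Pi-free, 2813.6 and 2874.3 in per1 control, and 3993.9 and 3784.5 in per1 Pi-free. In control medium both per1 signals lay below both Col-0 signals, with a difference of -0.71 ± 0.18 (limma, adjusted p = 0.25), and in Pi-free medium the genotypes overlapped, with a difference of 0.20 ± 0.18. rpoC2, which encodes part of the catalytic core, read 160.3 and 210.8 in Col-0 control, 214.5 and 281.3 in Col-0 Pi-free, 289.4 and 294.2 in per1 control, and 261.5 and 265 in per1 Pi-free, and stood 0.62 ± 0.19 higher in per1 in control medium (adjusted p = 0.33). rpoB, the beta subunit and the dimmest of the class, had the highest difference in Pi-free medium, 0.39 ± 0.32, and rpoC1 the lowest, -0.02 ± 0.23. The 4 genes read by the nuclear-encoded polymerase alone (accD, rpoB, rpoC1 and rpoC2) had a median of 0.04 in that comparison, against 0.17 for the photosystem genes. Of the remaining genes, ycf3, an assembly factor of photosystem I, had the largest genotype difference in Pi-free medium, 0.89 ± 0.28 (adjusted p = 0.31). rbcL differed by 0.13 ± 0.17, with overlapping signals of 727.8 and 653.5 in Col-0 and 821.5 and 696.3 in per1.

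The comparison of genotypes in control medium depended on 1 array. The median difference of the 69 genes was 0.15, with 45 above 0 (65.2%, against 47.5% of all probesets) and a median of -0.02 for all probesets. The groups were separate with per1 higher for 11 genes (15.9%, against 19.1%) and with per1 lower for 7 (10.1%, against 22.3%). No gene passed the adjusted threshold, as 0.0572% of all probesets did, and the lowest adjusted p was 0.25. An unadjusted p under 0.05 was reached by 7 genes with per1 higher and 3 with per1 lower, against 4.4% and 5.88% of all probesets. Without Col-0 control replicate 1 the median was -0.11 and 27 genes had an estimate above 0. The NDH genes had a median of 0.36 in control medium with all arrays. For 4 of 10 (40%, against 19.1% of all probesets) the per1 arrays lay above both Col-0 arrays.

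Averaged over the media, the genotype difference had a median of 0.14, with 48 of 69 genes above 0 (69.6%, against 48.6% of all probesets). No gene passed the adjusted threshold, as 0.818% of all probesets did. At an unadjusted p under 0.05, 20 genes stood higher in per1 (29%, against 6.64%) and 1 stood lower (1.45%, against 7.48%). The genotypes were separate in both media with per1 higher for 8 genes (11.6%, against 6.28%) and with per1 lower for 0 (against 7.06%). The 5 genes with the smallest p were ndhH, psbB, petN (0.76 ± 0.19, adjusted p = 0.11), petG (0.79 ± 0.20, adjusted p = 0.12) and ndhG. Without Col-0 control replicate 1 the median was 0.04 and 40 genes stood above 0. The NDH genes had a median of 0.44. When only probesets with a mean signal over 100 were tested, petN (adjusted p = 0.037), petG (0.041), psbB (0.033) and ndhG (0.046) passed the threshold, with the same changes. Over all settings run, their adjusted p reached 0.34, 0.34, 0.3 and 0.36 in the same order.

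**Figure D3:**
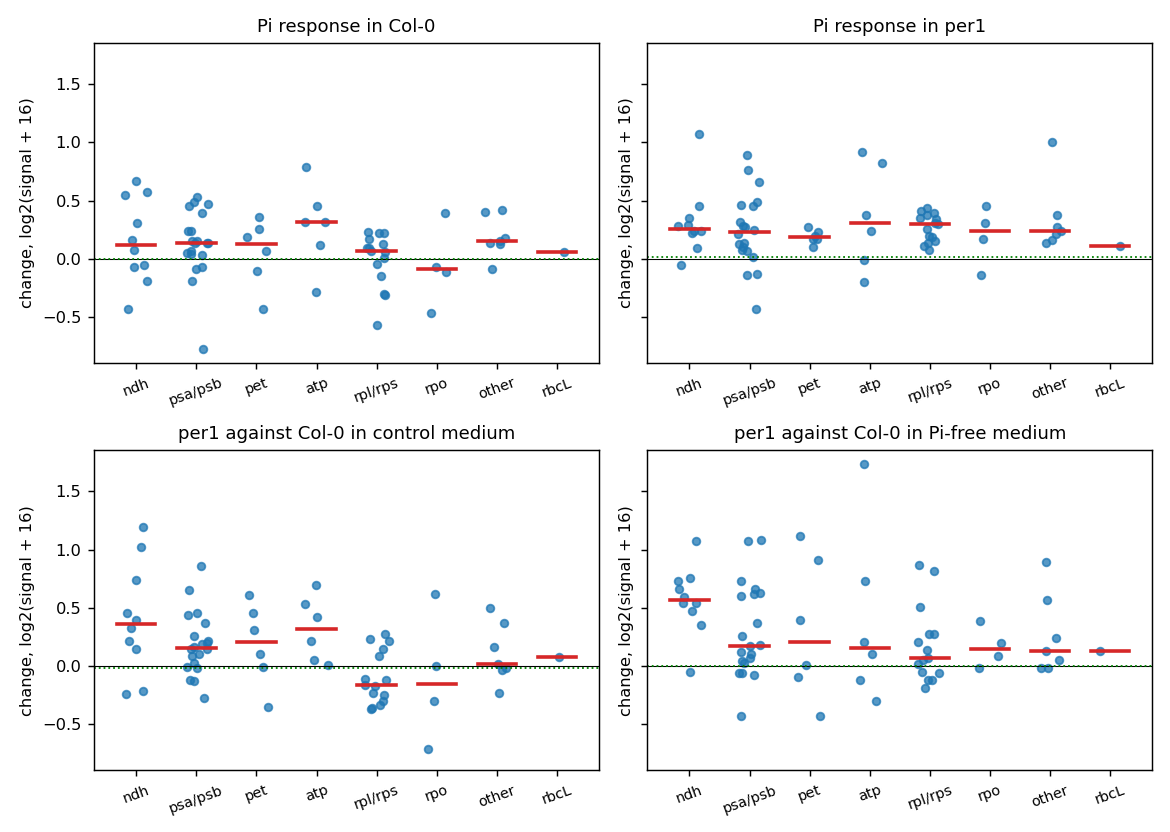
Change of each plastid-encoded gene (vertical axis, log2(signal + 16)) by functional class in the 4 comparisons between groups. Points are genes, red bars are class medians and the dotted green line is the median of all probesets. In Pi-free medium the NDH genes have a median of 0.57 between per1 and Col-0 and the ribosomal protein genes 0.07.

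The genotype differences followed the brightness of the probeset. The members were divided at their median mean signal of 502.8. In Pi-free medium the 34 dimmer genes had a median difference of 0.58, with 32 of 34 above 0 (94.1%) and separate groups with per1 higher for 23 (67.6%). Among all probesets in the same signal range, 49.9% were above 0 and 20.8% were separate with per1 higher. The 35 brighter genes had a median of 0.03, with 20 of 35 above 0. In control medium the medians were 0.32 and -0.03. All 9984 probesets in the range of the dimmer genes had a median of -0.00 in Pi-free medium, and the 6172 in the range of the brighter genes had 0.01, so the probesets as a whole showed no such split. On each array the dimmer genes stood at -0.47 and -0.07 in Col-0 control, -0.13 and -0.10 in Col-0 Pi-free, -0.19 and 0.26 in per1 control, and 0.31 and 0.54 in per1 Pi-free, relative to their means. The brighter genes stood at -0.24 and 0.16, 0.14 and 0.01, -0.07 and -0.15, and 0.12 and 0.03 in the same order. For the dimmer genes 3 of the 4 per1 arrays therefore lay above all Col-0 arrays, and for the brighter genes the genotypes overlapped. The split was present inside the classes. In Pi-free medium the dimmer genes had the higher median in 7 of the 7 classes that hold both kinds, and in control medium also in 7. The 7 dimmer NDH genes had a median of 0.66 and the 3 brighter ones 0.35, the 10 dimmer photosystem genes 0.62 and the 10 brighter ones 0.06, and the 6 dimmer ribosomal protein genes 0.25 and the 9 brighter ones -0.05. The dimmer and brighter medians were 0.73 and -0.12 for ATP synthase and 0.66 and -0.21 for cytochrome b6f genes. They were 0.24 and 0.09 for polymerase genes and 0.73 and 0.05 for genes of other function. The dimmer NDH genes thus did not stand out from the dimmer genes of most other classes. In the phosphate response of per1 the medians were 0.30 for the dimmer and 0.17 for the brighter genes.

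**Figure D4:**
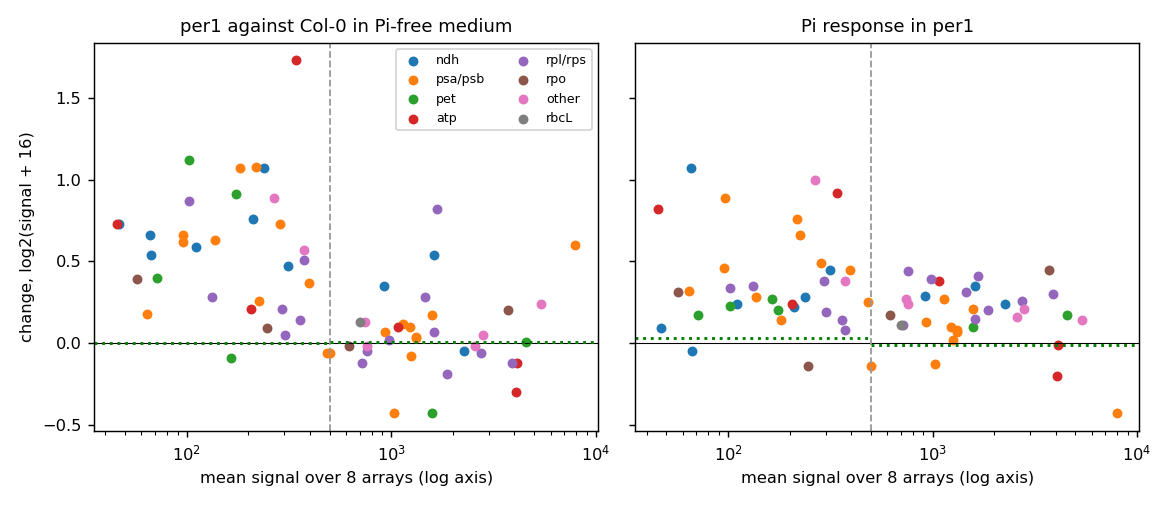
Change of each plastid-encoded gene (vertical axis, log2(signal + 16)) against its mean signal over the 8 arrays (log axis), for the genotype comparison in Pi-free medium and the phosphate response of per1. Colours are classes, the dashed line marks the members' median signal of 502.8, and dotted green lines are medians of all probesets in the same signal ranges. In the genotype comparison the dimmer genes have a median of 0.58 and the brighter genes 0.03.

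After transfer to Pi-free medium, the plastid-encoded genes of per1 stood slightly higher than in control medium, with no gene past the threshold. The 4 root markers stood lower in the same comparison, with a median of -0.33. The median change of the plastid-encoded genes was 0.24, against 0.02 for all probesets, and 62 of 69 genes had an estimate above 0 (89.9%, against 54.1%). For 30 genes both Pi-free arrays lay above both control arrays (43.5%, against 19.2%), and for 2 genes below them (2.9%, against 14.5%). The adjusted threshold was passed by 0 genes, as by 0.0044% of all probesets, and the lowest adjusted p was 0.94. An unadjusted p under 0.05 was reached by 7 genes, all higher, against 2.78% higher and 1.68% lower among all probesets. The shift was present in both arrays taken by number, with medians of 0.25 and 0.22. The class medians were close to each other: 0.26 for NDH, 0.23 for photosystem, 0.19 for cytochrome b6f, 0.31 for ATP synthase, 0.30 for ribosomal protein and 0.24 for polymerase genes.

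All 15 ribosomal protein genes had an estimate above 0 in per1, against 54.1% of all probesets and 89.9% of the 69 genes. For 8 of them (53.3%) the groups were separate with Pi-free higher, against 19.2% of all probesets and 43.5% of the 69 genes. rps18, a small-subunit protein, read 685.4 and 522 in per1 control and 872.5 and 764.5 in per1 Pi-free, a change of 0.44 ± 0.14 (adjusted p = 1). The range within the class ran from 0.08 for rpl14 to 0.44 for rps18. ycf3 had the smallest p of the members, with 223.6 and 186.5 in control medium and 397.3 and 452.4 in Pi-free medium, a change of 1.0 ± 0.28 (limma, adjusted p = 0.94). Its 2 groups were widely separate in per1, while in Col-0 its signals of 150.8 and 266.9 in control medium spanned the Pi-free value of 176. psaC, the iron-sulfur subunit of photosystem I, read 73.2 and 75.5 in per1 control and 133 and 171.7 in per1 Pi-free, a change of 0.89 ± 0.29. psbA, which encodes a reaction centre protein of photosystem II, read 152.3 and 207.4 against 335.4 and 252.3, a change of 0.66 ± 0.25. The largest change was that of ndhF, a membrane-arm NDH subunit, at 1.07 ± 0.41, with 27.1 and 68.8 in control and 116.9 and 104.8 in Pi-free medium. psbM, a small photosystem II subunit, had the lowest, -0.43 ± 0.44, with 10495.2 and 9472 in control and 9450.6 and 5749.4 in Pi-free medium, where the groups were separate only narrowly.

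In Col-0 the phosphate response of the same genes had a median of 0.13, with 49 of 69 above 0 (71%, against 49.9% of all probesets). The groups were separate with Pi-free higher for 11 genes (15.9%, against 17.7%) and lower for 7 (10.1%, against 17.5%). None passed the adjusted threshold, as 0.0615% of all probesets did, with a lowest adjusted p of 0.42. An unadjusted p under 0.05 was reached by 3 genes that stood higher and 2 that stood lower, against 3.89% and 3.79%. The direction depended on Col-0 control replicate 1: between the arrays numbered 1 the median was 0.35 and between those numbered 2 it was -0.14, and without Col-0 control replicate 1 it was -0.07, with 30 genes above 0. accD read 577.6 and 692.7 in control and 910.1 and 797.6 in Pi-free medium, a change of 0.42 ± 0.13 (limma, adjusted p = 0.49). In per1 it read 731.9 and 684.1 against 846.5 and 836.1, so that its Pi-free signals lay above the control signals in both genotypes. psbK, a small photosystem II subunit, had an estimate of 0.53 ± 0.20, with 745.7 and 1226 against 1367.4 and 1415.1. atpF, a stalk subunit of ATP synthase, had one of 0.45 ± 0.19, with 145.5 and 159.4 against 232.8 and 196.5. Neither passed the threshold (adjusted p = 0.61 for each).

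Averaged over the genotypes, the phosphate response had a median of 0.16, with 60 of 69 above 0 (87%, against 53% of all probesets), and no gene passed the threshold, as 0.127% of all probesets did. At an unadjusted p under 0.05, 9 genes stood higher (13%, against 3.59%) and 0 lower (against 2.7%). The media were separate in both genotypes with Pi-free higher for 5 genes (7.25%, against 3.71%) and lower for 0 (against 2.91%). The smallest adjusted p was 0.45, for accD at 0.33 ± 0.09, and the next genes were psaC at 0.68 ± 0.21, psbA at 0.53 ± 0.18, atpI at 0.81 ± 0.28 and ycf3 at 0.56 ± 0.20. Without Col-0 control replicate 1 the median was 0.07, with 46 genes above 0.

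The difference between the phosphate responses of the genotypes (the interaction) had a median of 0.14, with 52 of 69 above 0 (75.4%, against 53%). No gene passed the threshold, as 0.00879% of all probesets did, and the lowest adjusted p was 0.91. Without Col-0 control replicate 1 the median was 0.33, and without Col-0 control replicate 2 it was -0.05. At an unadjusted p under 0.05, no gene had a lower response in per1 (against 2.33%) and 3 had a higher one (4.35%, against 2.98%), namely rpl33 at 0.99 ± 0.22, rpoA at 0.91 ± 0.25 and rpl22 at 0.61 ± 0.20. The estimates for rpl33 were -0.57 ± 0.16 in Col-0 and 0.41 ± 0.16 in per1. Those for rpoA were -0.46 ± 0.18 and 0.45 ± 0.18. rpl22, a large-subunit ribosomal protein, read 1558 and 1683.5 in Col-0 control, 1417.4 and 1214.6 in Col-0 Pi-free, 1472.1 and 1117.2 in per1 control, and 1553.9 and 1639.5 in per1 Pi-free. For all 3, the Pi-free arrays lay below the control arrays in Col-0 and above them in per1. Separate groups in opposite directions, in either order, were as frequent among all probesets (5.51%) as among the 69 genes (5.8%). ndhC, a membrane-arm NDH subunit, followed at 0.78 ± 0.35, with 1934.1 and 1544.8 against 1543.6 and 1061.2 in Col-0 and 1853.5 and 1154.6 against 2188.5 and 1605.8 in per1.

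Neighbours on the plastid chromosome often had unlike patterns over the arrays. The correlation of 2 genes over the 8 arrays, given as a description, had a median of 0.45 over 64 pairs of neighbouring members and of 0.34 over the 2282 other pairs, and all pairs share the same arrays and group means. ndhE and ndhG (0.95) and the ATP synthase genes atpE and atpB (0.9) were close. psbB and psbT, which are read together, had 0.8. rpoB, rpoC1 and rpoC2 are known to be read as 1 unit, yet rpoC1 had a correlation of -0.68 with rpoB and of -0.33 with rpoC2. The rpoB signals were dim, at 39.1 to 72.7 over the 8 arrays, and the part of probe noise in its correlation was not tested. In the cluster from ndhD to rps15, ndhG and ndhI had -0.15, while their genotype differences in Pi-free medium were 1.07 and -0.05.

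**Figure D5:**
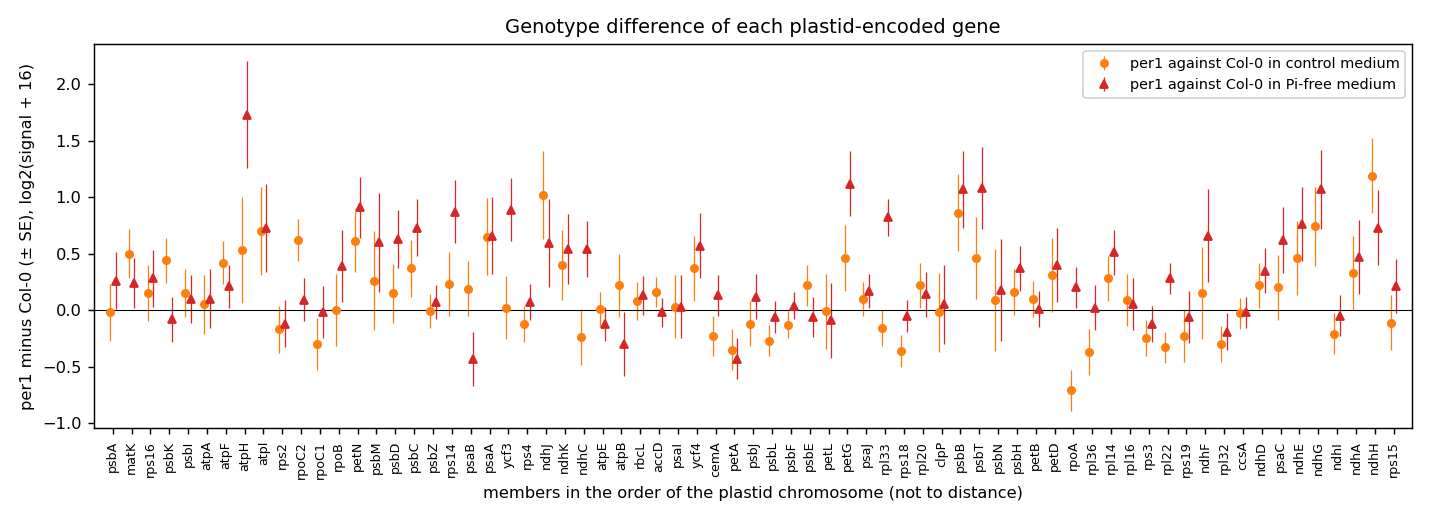
Difference between per1 and Col-0 (vertical axis, log2(signal + 16), with SE bars, 2 arrays per group) for the 69 plastid-encoded genes in their order along the plastid chromosome, in control medium (circles) and Pi-free medium (triangles). Neighbouring genes often differ, as ndhG at 1.07 and ndhI at -0.05 in Pi-free medium, and atpH has the highest value at 1.73.

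Few nuclear genes for the same complexes had a named probeset. Of 36 listed nuclear photosystem and antenna genes 7 were measured, and averaged over media 7 of 7 stood lower in per1, with a median of -0.68 against -0.01 for all probesets, although none passed the threshold. LHCB4.1, an antenna protein of photosystem II, came closest at -0.76 ± 0.15 (limma, adjusted p = 0.052). Of 10 listed nuclear genes for Rubisco, ATP synthase and cytochrome b6f 3 were measured, with a median of -0.52. One of them, RCA, the activase of Rubisco, fell by 0.73 ± 0.13 on the log2 scale in per1 (adjusted p = 0.043), with signals of 149.9 to 324.7 over the 8 arrays. RCA passed the threshold in 6 of 15 alternative settings and in none of the 8 that leave out an array, with adjusted p of 0.0095 to 0.2 and a lower value in per1 throughout. RCA and LHCB4.1 are also 2 of the 3 measured markers of green shoot tissue, whose summed signal was lower on every per1 array than on any Col-0 array. These markers thus stood on the other side from the plastid-encoded photosystem genes, whose median averaged over media was 0.14. In Pi-free medium 6 of the 7 nuclear photosystem and antenna genes stood lower in per1, and their median was -0.42. Nuclear NDH genes had 3 of 15 measured, with a median of -0.57 in control medium (3 of 3 lower), 0.12 in Pi-free medium (2 of 3 higher) and -0.39 averaged over media. The plastid-encoded NDH genes had 0.36, 0.57 and 0.44, so with all arrays the genomes were on opposite sides of 0 in control medium. Relative to their own means, the plastid-encoded NDH genes stood at -0.55 and -0.02 on the Col-0 control arrays. On the per1 control arrays they stood at -0.12 and 0.24. The contrast in control medium thus leans on Col-0 control replicate 1, and the class median without that array was not computed. The nuclear median in Pi-free medium was that of NDHL (0.12 ± 0.32), whose signals of 3.7 to 47.7 lay near the level of the control probesets. NDHN differed by 0.47 ± 0.34 and NDHS by -0.21 ± 0.36 there, so the nuclear NDH genes had no common side in Pi-free medium. Nuclear genes for plastid ribosomal proteins had 7 of 31 measured, with a median of -0.21 averaged over media. The plastid-encoded ones had -0.02, with 7 of 15 above 0 (46.7%, against 48.6% of all probesets), and all probesets had -0.01. In control medium the medians were -0.15 for the nuclear and -0.16 for the plastid-encoded genes. In Pi-free medium they were -0.17 and 0.07, on opposite sides of 0. Of the 3 nuclear-encoded organelle polymerases 1 was measured, RPOTmp, which is known to serve both organelles, and it differed by 0.11 ± 0.14. None of 6 sigma factors and none of 13 polymerase-associated proteins had a named probeset.

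Genes of the mitochondrial genome mostly stood lower in per1 in Pi-free medium. The larger differences were in genes whose signals reached down to the control level. The 11 genes with a named probeset had a median genotype difference of -0.49 in Pi-free medium, with 2 above 0 (50.5% of all probesets were) and 9 below, against 0.20 for the plastid-encoded genes in the same arrays. The groups were separate with per1 lower for 7 of 11, against 19.8% of all probesets. Only 5 of the 11 lay above the brightest Bacillus subtilis control on every array. These differed by -0.10 (nad4L), -0.14 (nad4), 0.02 (nad6), 0.02 (nad1) and -0.30 (cox1). The other 6, with differences of -0.49 to -1.35, were at or below that control on at least 1 array. Among them, nad7, matR and nad2 were at or below it on 6 or 7 of the 8 arrays, so the changes of these 3 rest on signals at that level. cox2, a subunit of cytochrome c oxidase, read 85.9 and 150.7 in Col-0 Pi-free and 49.1 and 24.3 in per1 Pi-free, where the last value was below the control, and it did not pass the threshold (limma, adjusted p = 0.24). On Col-0 control replicate 1 the mitochondrial genes too were low, with a median of -0.38 relative to their own means, against 0.41 on replicate 2.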

How the data were processed

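The authors deposited 1 linear signal intensity per probeset and array, and the deposited values had been scaled before deposit. The sources used here do not name software or background step, and the files hold no detection calls. RNA was purified on columns, and 10 µg went into cDNA and biotin-labelled RNA, per the labels' protocols. Of 22810 probesets, 64 controls were left out. The annotation gave 1 gene to 13513 probesets, several to 503 and none to 8730, and 13436 matched a TAIR10.1 gene. Mitochondrial genes matched by symbol only. Signals were taken as log2(signal + 16), which understates changes of dim probesets, and fitted with limma 3.58.1 (R 4.3.3), using a mean for each group, 4 residual degrees of freedom, an intensity trend and Benjamini-Hochberg adjustment over 22746 probesets. The 7 comparisons share arrays. The fit was tested on simulated data. The number of arrays limits precision. Named were example genes, extremes of signal or change in each class, and the 5 smallest p per comparison. Members, lists and this rule were chosen with earlier results of these data known. Alternatives covered pseudocount, variance trend, normalization, dim probesets, replicate block and left-out arrays.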

Additional observations from a re-analysis of the deposited data

Results flagged for a closer look

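For 4 plastid-encoded genes the arrays of Pi-free and control medium were separate in both genotypes and in opposite directions. The difference between the responses was 0.99 for rpl33, 0.91 for rpoA and 0.61 for rpl22, which stood lower in Pi-free medium in Col-0 and higher in per1, and -0.53 for rpoC2, which stood the other way. The interaction was tested with limma, and none passed the threshold (adjusted p = 0.91 for rpl33 and rpoA and 0.92 for rpl22 and rpoC2). These are 4 of 69 genes, or 5.8%, and 5.51% of all probesets had such a pattern.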

How the results depend on the processing

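Of the summary values under alternative settings, 322 stayed close to the reported value (medians within 0.167, the within-group SD, counts of genes above 0 within 1.5 times, counts past the threshold equal), 11 moved further and 3 changed sign. Part of the 322 could not move. The variance trend and the replicate block leave the estimates as they are. An array outside a comparison of 2 groups does not enter its estimate either. Left-out arrays moved the medians most, to -0.07 to 0.34 for the phosphate response in Col-0 (30 to 54 genes above 0), -0.11 to 0.33 for the genotypes in control medium (27 to 54) and -0.05 to 0.33 for the interaction (32 to 59), with the lowest of the first pair without Col-0 control replicate 1. They were 0.20 to 0.25 for the response in per1, 0.16 to 0.29 for the genotypes in Pi-free medium, 0.07 to 0.29 for the averaged response and 0.04 to 0.24 for the averaged genotypes. The last had 0 to 2 genes past the threshold, psbT at 1.08 (adjusted p = 0.045) and rpoA at -0.42 (0.043) without Col-0 Pi-free replicate 1. Among probesets with a mean signal over 100, 1 gene passed between genotypes in Pi-free medium (rpl33, adjusted p = 0.042, and 0.042 to 0.63 over all settings) and 4 passed averaged over media. With the replicate number as a block, 1 gene passed in each of these comparisons, atpH both times (adjusted p = 0.029 and 0.014). Same-numbered arrays correlated by 0.002 to 0.077 in their deviations over all probesets and by 0.008 to 0.549 over the 69 genes. No label says that a number marks a shared batch, so the main fit did not pair samples by number. At least 1 pair of groups was under 0.1 on either count, but all of these correlations were positive. In every group the 5S and 25S rRNA signals were also higher on the array numbered 2. Whether same-numbered arrays share a batch was not tested. One probeset per gene and the absence of shared probesets made 2 alternatives, averaging probesets per gene and dropping shared probesets, identical to the reported values. Adding the genes in 2 copies, chosen after seeing the data, gave a median of 0.13 in Col-0 and 0.23 in per1 for the phosphate response. Of 520 values for named genes, 514 kept their direction and side of the threshold and 6 newly passed it. For part of these values too, the estimate could not move. Signals at or below the control level on 1 or 2 arrays affect atpI, psaA, psbN, ndhF and ndhH.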
